A study of Mus musculus with 15 samples.

Results

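The genes described are 10 that encode the secreted and surface glycoproteins by which megakaryocytes and platelets are recognised: Pf4, Ppbp, Vwf, Itga2b, Itgb3, Gp1ba, Gp1bb, Gp9, Gp5 and Gp6. They were chosen by gene symbol, and each symbol matched a single row among the 38315 genes of the table. All 10 were among the 18941 genes kept for testing, which had a normalized count of at least 10 in at least 4 samples. RNA was sequenced from 7 bone marrows with acute myeloid leukaemia (AML) of mice of the genotype NUP98-NSD1/FLT3-ITD, from 4 wild-type whole marrows and from 4 wild-type lineage-negative marrows. The fusion NUP98-NSD1 couples part of a nuclear pore protein to an enzyme that methylates histones, and in FLT3-ITD a stretch of the receptor tyrosine kinase FLT3 is repeated in tandem; both were carried by the AML mice and neither by the controls. Lineage-negative marrow has been depleted of cells that carry surface antigens of mature lineages, so it is enriched for stem and progenitor cells. The labels give no ages, no promoter for the transgenes and no antibodies for the depletion, and no treatment is named for any group. They do not say that replicates of a group came from separate litters or days, so the p-values measure the spread between these samples.

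Megakaryocytes are the large polyploid marrow cells that shed platelets into the blood, and they arise from progenitors under the control of the transcription factors GATA1, TAL1, FLI1 and RUNX1. As they mature they fill alpha granules with the chemokines PF4 and PPBP and with von Willebrand factor (VWF). Their surface carries the fibrinogen receptor, integrin alpha-IIb beta-3 (Itga2b and Itgb3), the GPIb-IX-V complex that binds VWF (Gp1ba, Gp1bb, Gp9 and Gp5), and the collagen receptor GPVI (Gp6). In bulk marrow, fewer megakaryocytes and less of a transcript in each of them cannot be told apart.

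The level of a gene is given as its normalized count, the authors' estimated read count after scaling each library by a size factor. Differences are on the scale of log2(normalized count + 1), which understates the change of low genes, and were tested with limma over all genes kept. A gene was called higher or lower where its adjusted p was under 0.05 and its log2 difference, in either direction, was 1 or more. Estimated depth was 20.3 to 35.1 M reads in AML (M, mega), 20.3 to 28.1 M in lineage-negative marrow and 11.4 to 17.2 M in whole marrow, so whole marrow was shallower than both other groups. A floor of 3 reads lay between 1.96 and 4.09 normalized counts, and it covers counting error only. Over all genes kept the median log2 difference was 0.67 between AML and whole marrow, 0.02 between AML and lineage-negative marrow and 0.59 between lineage-negative and whole marrow. Scaling by TMM, a trimmed mean of log ratios between libraries, moved these medians to -0.01, 0.03 and -0.09. It turned the split between AML and whole marrow from 5167 genes higher and 2132 lower to 896 higher and 3037 lower, and that between lineage-negative and whole marrow from 6266 and 3259 to 2078 and 4692. Whole marrow replicate 1 stood apart, with a TMM scale factor of 0.468 where the other 3 had 0.792 to 0.816, and it gave the lowest whole marrow value for 9 of the 10 genes; Gp1bb was the exception. Genes of olfactory and vomeronasal receptors, which marrow should lack, averaged 6.31 to 11.9 normalized counts in whole marrow, 0.325 to 0.462 in lineage-negative marrow and 0.404 to 3.34 in AML. Scaled to exon length, that background equalled 25.9% of the mean of Gp6 in whole marrow, 15.9% for Gp1bb, 11.6% for Vwf, 10.96% for Gp1ba and 8.39% for Gp5.

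In AML marrow 8 of the 10 genes were lower than in whole marrow and 0 were higher (limma; at an unadjusted p under 0.05, also 0 were higher). Over all genes kept, 11.3% were called lower and 27.3% higher in this comparison. Against lineage-negative marrow 6 of 10 were lower and Itgb3 alone was higher, where 12.5% of all genes were called lower and 17.7% higher. The members' median log2 difference was -2.38 against whole marrow and -2.05 against lineage-negative marrow, and it was 0.33 between lineage-negative and whole marrow. The 8 lower calls against whole marrow were also made after TMM scaling and without whole marrow replicate 1. Between the normal marrows 2 of 10 were higher in lineage-negative marrow (Itga2b and Gp5) and 2 lower (Ppbp and Gp6), beside 33.1% of all genes higher and 17.2% lower. TMM scaling added Itgb3 to the lower calls. The 3 comparisons share samples in pairs and are therefore not independent.

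**Figure D1:**
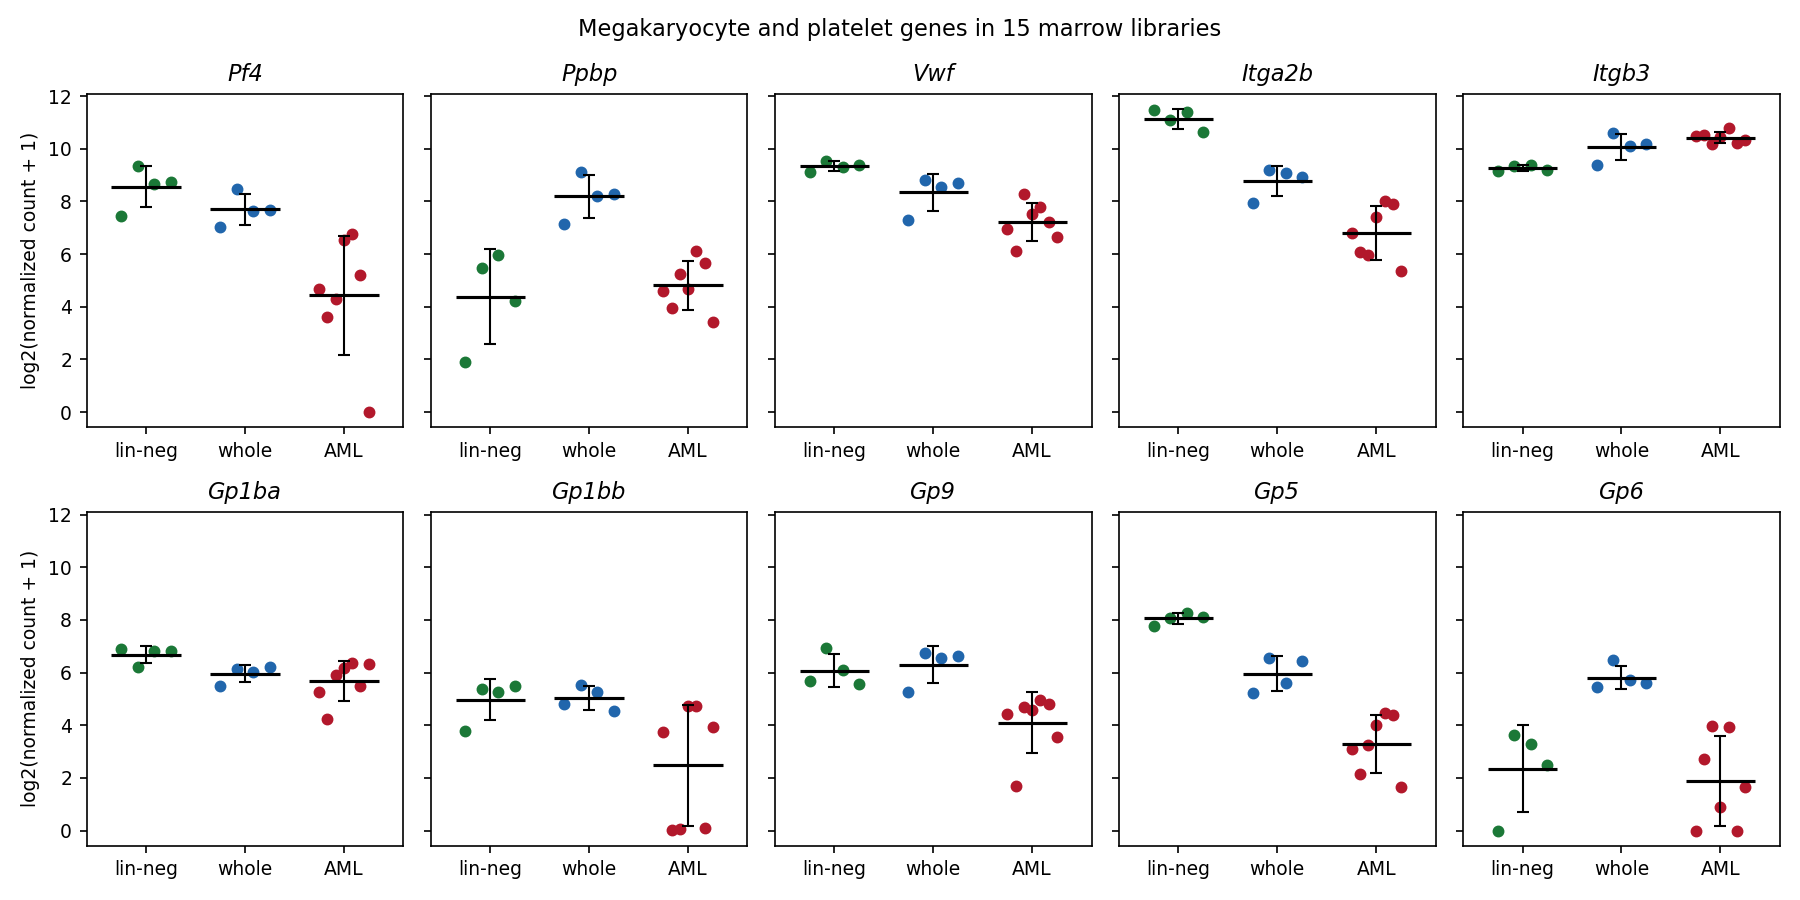
Each panel plots 1 gene in the 15 libraries as log2(normalized count + 1), with lineage-negative marrow in green (n = 4), whole marrow in blue (n = 4) and AML in red (n = 7); the bar is the mean and the whiskers are 1 SD. AML points lie below both normal groups for Pf4, Gp9 and Gp5 and above the lineage-negative points for Itgb3, and 3 AML libraries lie near 0 for Gp1bb.

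**Figure D2:**
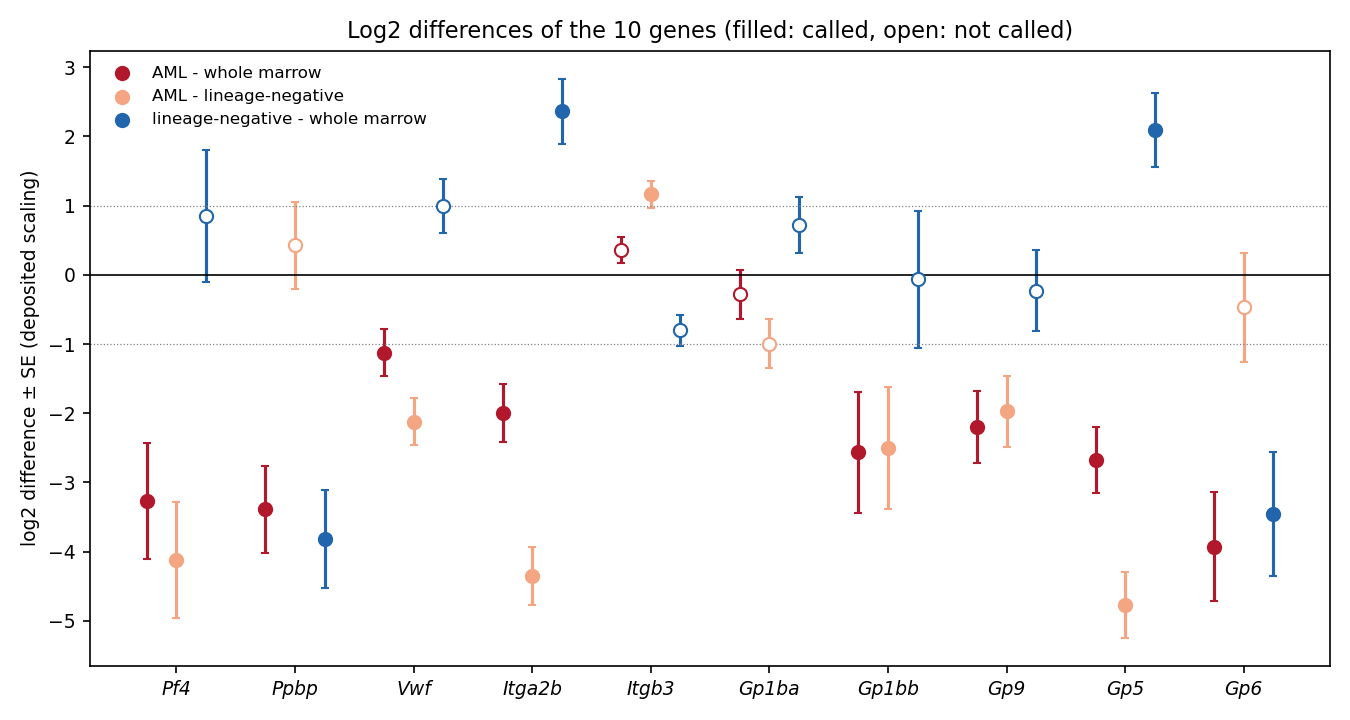
The log2 difference of each gene is plotted with its standard error for the 3 comparisons, with a filled point where the gene was called and an open point where it was not; dotted lines mark the minimum difference of 1. The differences of AML from whole marrow run from -3.93 for Gp6 to 0.36 for Itgb3, and the largest fall against lineage-negative marrow was that of Gp5 at -4.77.

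Pf4 and Ppbp encode platelet factor 4 and pro-platelet basic protein, chemokines that are stored in alpha granules and released when platelets are activated. They lie beside each other on chromosome 5 on the plus strand, Ppbp at 90768518 to 90770063 and Pf4 at 90772435 to 90773383 (GRCm38). Their promoters are shown because these neighbours were both low in AML and diverged in lineage-negative marrow. The sequences are the 250 bases before the start site in RefSeq (GRCm38.p6, plus strand), at chr5:90772185-90772434 for Pf4 and chr5:90768268-90768517 for Ppbp, and neither holds any of the motif letters searched for below, so no base is in capitals.
Pf4: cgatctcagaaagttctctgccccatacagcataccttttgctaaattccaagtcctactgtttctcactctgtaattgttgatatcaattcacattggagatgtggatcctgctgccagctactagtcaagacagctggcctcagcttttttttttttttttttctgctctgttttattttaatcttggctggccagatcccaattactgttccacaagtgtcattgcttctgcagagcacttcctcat
Ppbp: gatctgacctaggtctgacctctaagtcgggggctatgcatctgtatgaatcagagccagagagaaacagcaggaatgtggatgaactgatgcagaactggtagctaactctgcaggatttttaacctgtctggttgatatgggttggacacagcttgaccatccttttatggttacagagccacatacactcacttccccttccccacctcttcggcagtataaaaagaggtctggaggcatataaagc

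Pf4 had normalized counts of 130, 354, 198 and 202 in whole marrow replicates 1 to 4 and of 175, 643, 408 and 429 in lineage-negative marrow. In AML it ran from 0 in replicate 7 over a median of 24.2 to 109 in replicate 5. Every AML library lay below every normal library, while the normal groups overlapped. Whole marrow averaged 221 ± 94.4 (SD, n = 4), lineage-negative marrow 414 ± 191 (SD, n = 4) and AML 41.2 ± 41.6 (SD, n = 7). Pf4 thus fell by 3.27 on the log2 scale against whole marrow (SE 0.84, adjusted p = 0.00244) and by 4.12 against lineage-negative marrow (SE 0.84, adjusted p = 0.000479). Without AML replicate 7 the differences were -2.53 and -3.38, and both calls held. The normal groups differed by 0.85 for Pf4 (SE 0.95, adjusted p = 0.444).

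Ppbp followed Pf4 in whole marrow, with 142, 560, 297 and 307 normalized counts in replicates 1 to 4. In lineage-negative marrow it stood at only 2.72, 43.2, 60.8 and 17.6, the first of these at the 3-read floor. AML libraries ran from 9.71 over a median of 24.5 to 68.9. Ppbp was therefore low in both AML and lineage-negative marrow, whose libraries overlapped, and every whole marrow library lay above all of them. On the log2 scale AML differed from whole marrow by -3.39 (SE 0.63, adjusted p = 0.000153), about 10.5-fold. Lineage-negative marrow was lower than whole marrow by -3.81 (SE 0.71, adjusted p = 0.000112), and by -2.98 without lineage-negative replicate 1. AML and lineage-negative marrow differed by 0.43 (SE 0.63, adjusted p = 0.605), a difference that turned to -0.40 without lineage-negative replicate 1.

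The scaling of a library cancels from the ratio of Pf4 to Ppbp except at low values, where the pseudocount of 1 counts. The log2 ratio was -0.49 ± 0.25 (SD, n = 4) in whole marrow, -0.37 ± 1.62 (SD, n = 7) in AML and 4.17 ± 1.19 (SD, n = 4) in lineage-negative marrow. Lineage-negative marrow differed from whole marrow by 4.66 (exact two-sided permutation test, p = 0.0286, the smallest that 70 splits allow, adjusted p = 0.0429 over 15 ratio tests). AML differed from lineage-negative marrow by -4.55 (exact permutation p = 0.00606, the smallest that 330 splits allow, adjusted p = 0.0182). Between AML and whole marrow the difference was 0.12 (exact permutation p = 0.836). AML ratios ran from -3.42 in replicate 7, where Pf4 was at 0, to 1.84 in replicate 4, so this comparison was imprecise. Among other chemokine genes of the same chromosome, Cxcl2, a neutrophil attractant, had 441 normalized counts in AML replicate 6, 9.80 to 41.0 in the other 6 AML libraries, and means of 107 in whole and 25.8 in lineage-negative marrow. It was called only as lower in lineage-negative than in whole marrow (log2 difference -1.95, adjusted p = 0.0486). Cxcl1, Cxcl3, Cxcl5 and Cxcl15 did not pass the filter on low values.

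Vwf encodes the large multimeric protein that tethers platelets to damaged vessel walls, and endothelial cells make it as well as megakaryocytes. It had 155, 448, 372 and 419 normalized counts in whole marrow replicates 1 to 4 and 553, 748, 628.4 and 663 in lineage-negative marrow. AML ran from 67.5 over a median of 147 to 308. All lineage-negative libraries lay above all others, and in AML 4 of 7 libraries lay under the lowest whole marrow value. Vwf was lower in AML by -2.12 against lineage-negative marrow (SE 0.34, adjusted p = 4.31e-05). Against whole marrow the log2 difference was -1.12 (SE 0.34, adjusted p = 0.00783). That call was lost without AML replicate 2 (-0.94), without whole marrow replicate 2 (-0.97) or 4 (-0.9994), and after subtraction of the background scaled to exon length (-0.92, adjusted p = 0.0543). Lineage-negative marrow exceeded whole marrow by 0.99 (SE 0.39, adjusted p = 0.0306), just under the size required. It was called in 6 of the alternative settings, with values up to 1.25, while TMM scaling gave 0.30 (adjusted p = 0.49). The summed level of 12 endothelial markers, among them Cdh5 and Pecam1, was 1491 to 3099 in AML, 816 to 1436 in whole marrow and 4463 to 5184 in lineage-negative marrow, with no marker at 0 throughout a group. Of the 12, 1 was higher and 2 were lower in AML than in whole marrow (0 and 4 with TMM scaling), and 4 were higher and 7 lower in AML than in lineage-negative marrow. Of all genes kept, 27.3% were higher and 11.3% lower against whole marrow before TMM scaling, and 17.7% and 12.5% against lineage-negative marrow. Between the normal marrows 7 were higher and 4 lower in lineage-negative marrow (4 and 4 with TMM scaling), beside 33.1% and 17.2% of all genes. Pecam1 averaged 2109 there against 693 in whole marrow, and Cdh5 5.18 against 43.1, so these markers did not move together. Their part in the level of Vwf was not tested.

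Itga2b encodes integrin alpha-IIb, the surface antigen CD41, which pairs with the beta-3 chain to bind fibrinogen and is carried by megakaryocytes and some early progenitors. The gene lies on the minus strand of chromosome 11 (102453297 to 102470122, GRCm38). It had 244, 586, 534 and 483 normalized counts in whole marrow replicates 1 to 4 and 2819, 2194, 2661 and 1570 in lineage-negative marrow. In AML it ran from 39.9 over a median of 111 to 259. Every lineage-negative library lay above every other library, and in AML 6 of 7 libraries lay under the lowest whole marrow value, replicate 5 being the exception. For Itga2b the log2 difference of AML was -1.99 from whole marrow (SE 0.42, adjusted p = 0.000471) and -4.35 from lineage-negative marrow (SE 0.42, adjusted p = 6.66e-08), about 20.4-fold. It was higher in lineage-negative than in whole marrow by 2.36 (SE 0.47, adjusted p = 0.000241). The log2 ratio of Vwf to Itga2b was lower in lineage-negative marrow (-1.81) than in whole marrow (-0.44; exact permutation p = 0.0286, adjusted p = 0.0429) and AML (0.43; exact permutation p = 0.00606, adjusted p = 0.0182), so Itga2b differed more than Vwf there. AML exceeded whole marrow in this ratio by 0.87 (exact permutation p = 0.0667, adjusted p = 0.0909), and without AML replicate 6 by 1.05 with an adjusted p of 0.0429.

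The beta-3 chain gene Itgb3 did not follow its partner. The beta-3 chain, CD61, also pairs with integrin alpha-V, which is present on macrophages and other cells. Itgb3 had 669, 1549, 1089 and 1158 normalized counts in whole marrow replicates 1 to 4 and 566, 642, 659 and 586 in lineage-negative marrow. AML ran from 1163 over a median of 1380 to 1788. All AML and all whole marrow libraries thus lay above all lineage-negative ones, and AML overlapped whole marrow. Itgb3 was higher in AML than in lineage-negative marrow by 1.16 (SE 0.19, adjusted p = 5.73e-05). Against whole marrow the log2 difference of 0.36 (SE 0.19, adjusted p = 0.111) was not called and changed sign with TMM scaling, to -0.34. Lineage-negative marrow was lower than whole marrow by -0.80 (SE 0.22, adjusted p = 0.00325), too small to be called, and by -1.50 with TMM scaling. The standard deviation over AML libraries was 15.4% of the mean for Itgb3 and 42.8% to 121% for the other 9 genes.

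The log2 ratio of Itga2b to Itgb3 separated the groups without overlap. It was 1.88 ± 0.38 (SD, n = 4) in lineage-negative marrow, -1.28 ± 0.19 (SD, n = 4) in whole marrow, and AML was lowest at -3.63 ± 0.97 (SD, n = 7). AML differed from whole marrow by -2.35 and from lineage-negative marrow by -5.51 (exact permutation p = 0.00606 and adjusted p = 0.0182 for each). The normal marrows differed by 3.16 (exact permutation p = 0.0286, adjusted p = 0.0429). Itgav, the gene of alpha-V, was looked up after these values were seen. AML averaged 1293 ± 303 (SD, n = 7), whole marrow 516 ± 136 (SD, n = 4) and lineage-negative marrow 478 ± 13.5 (SD, n = 4), so Itgav was higher in AML by 1.33 (adjusted p = 2.91e-05) and 1.40 (adjusted p = 1.41e-05). Relative to the median of all genes, its difference between AML and whole marrow was 0.66. Summed levels of 10 macrophage markers, among them Adgre1 and C1qa, were 3617 to 8197 in AML, 2177 to 5257 in whole marrow and 298 to 685 in lineage-negative marrow. All 10 were higher in AML than in lineage-negative marrow, where 17.7% of all genes kept were higher. Against whole marrow 1 was higher and 2 were lower in AML (0 and 2 with TMM scaling). Of all genes kept, 27.3% were higher and 11.3% lower in that comparison before TMM scaling. Their part in the level of Itgb3 was not tested.

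**Figure D3:**
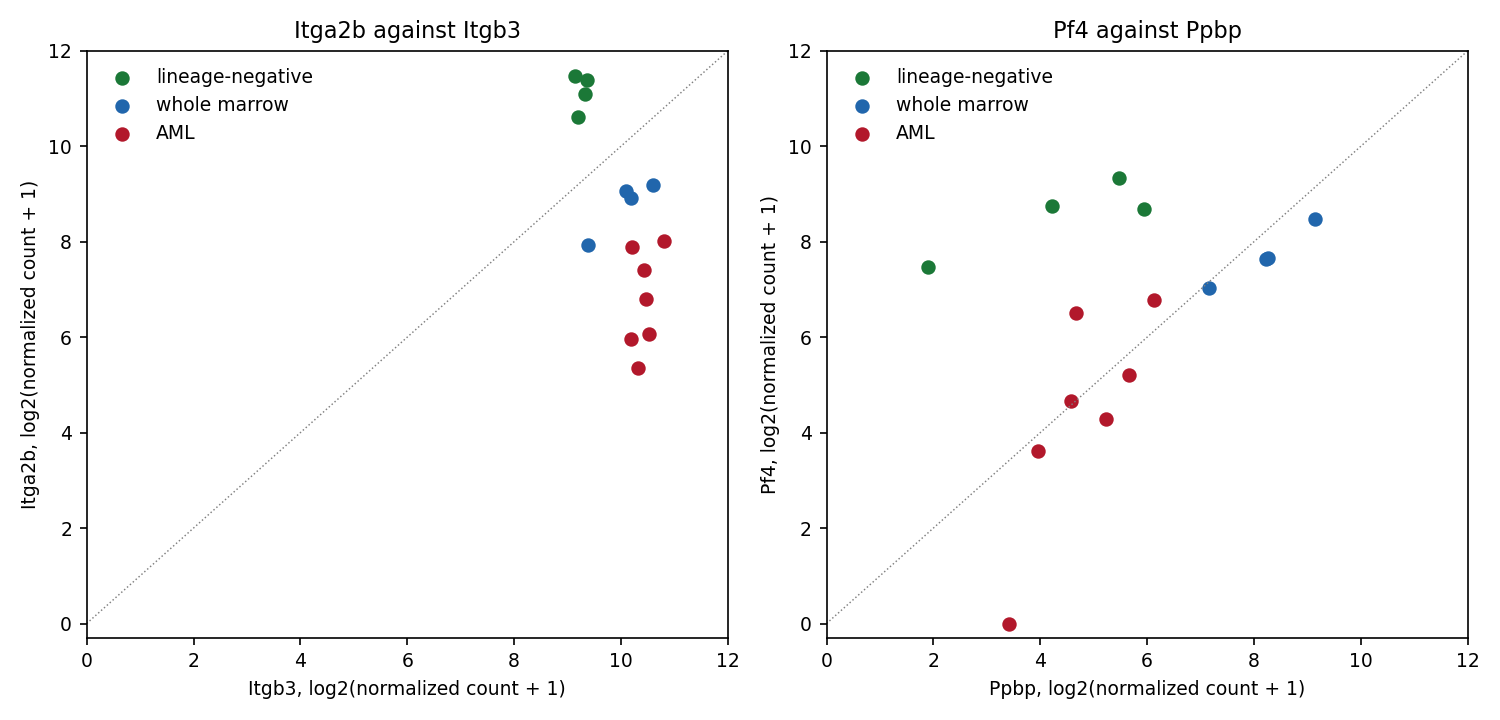
Each point is 1 library, as log2(normalized count + 1), with Itga2b against Itgb3 on the left and Pf4 against Ppbp on the right; the dotted line marks equal values of both genes. On the left the 3 groups occupy separate places, with lineage-negative marrow above the line and AML farthest below it, and on the right the lineage-negative points lie 2.73 to 5.56 above the line while AML replicate 7 lies at a Pf4 of 0.

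The GPIb-IX-V complex is the platelet receptor for VWF. Gp1ba encodes its ligand-binding alpha chain, Gp1bb the beta chain joined to it by disulfide bonds, Gp9 a chain needed for its assembly at the surface, and Gp5 a more loosely held subunit. The promoters of Gp1ba and Gp5 are shown because Gp5 was called lower in AML against both normal groups and Gp1ba against neither. They are the 250 bases before the RefSeq start site (GRCm38.p6), at chr11:70638872-70639121 on the plus strand for Gp1ba and at chr16:30310782-30311031 on the minus strand for Gp5, written 5′ to 3′ along the gene. Capitals mark GATA preceded by A or T and followed by A or G, the core that GATA factors bind, and GGAAG preceded by CA or CC, a core of ETS factors, on either strand.
Gp1ba: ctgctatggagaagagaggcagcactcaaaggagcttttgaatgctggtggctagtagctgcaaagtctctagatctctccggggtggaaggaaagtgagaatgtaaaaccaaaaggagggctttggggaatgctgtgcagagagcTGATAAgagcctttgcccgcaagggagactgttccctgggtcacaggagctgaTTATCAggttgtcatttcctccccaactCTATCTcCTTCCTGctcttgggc
Gp5: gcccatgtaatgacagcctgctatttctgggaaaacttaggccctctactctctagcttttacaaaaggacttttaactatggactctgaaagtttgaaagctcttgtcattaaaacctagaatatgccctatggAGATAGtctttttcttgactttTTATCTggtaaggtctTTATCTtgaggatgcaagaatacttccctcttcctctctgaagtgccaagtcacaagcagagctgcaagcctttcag

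The Gp1ba window holds 3 GATA matches, at -104 to -99 on the sense strand and at -51 to -46 and -23 to -18 on the other strand, and 1 ETS match at -16 to -10 on the other strand, with positions counted back from the start site. The matches do not overlap. The Gp5 window holds 3 GATA matches, at -115 to -110 on the sense strand and at -93 to -88 and -77 to -72 on the other. RefSeq promoters were found for 8 of the 10 genes, all but Itgb3 and Vwf. A GATA match was present in 4 of the 8 (Gp1ba, Gp1bb, Gp5 and Gp6), an ETS match in 1 and both in 1. The Itga2b window, at chr11:102469884-102470133, lies almost wholly inside the gene as annotated in GENCODE (102453297 to 102470122, minus strand). Its lack of a match therefore does not describe the bases before the annotated start. Of 32851 mouse promoter windows of this length, 26.5% held a GATA match, 17% an ETS match and 3.74% both. A match is a description of the letters and not of a bound factor.

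Gp5 fell most against lineage-negative marrow among the 10 genes. It had 216, 269, 308 and 274 normalized counts in lineage-negative replicates 1 to 4, 35.9, 93.8, 48.0 and 86.0 in whole marrow, and 2.16 to 20.8 in AML with a median of 8.58. The 3 groups did not overlap, although 2 AML libraries were at or under the 3-read floor. On the log2 scale Gp5 differed in AML by -2.67 from whole marrow (SE 0.47, adjusted p = 0.000105) and by -4.77 from lineage-negative marrow (SE 0.47, adjusted p = 1.06e-07), about 27.2-fold. It was higher in lineage-negative than in whole marrow by 2.10 (SE 0.54, adjusted p = 0.00208).

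Gp9 was low in AML against both normal groups. Its normalized counts were 37.7, 107, 93.9 and 96.9 in whole marrow replicates 1 to 4 and 49.9, 122, 67.9 and 46.3 in lineage-negative marrow, and AML ran from 2.25 over a median of 22.8 to 30.2. Every AML library lay below every normal library, and the normal groups overlapped. The log2 difference of AML was -2.20 from whole marrow (SE 0.52, adjusted p = 0.00118) and -1.97 from lineage-negative marrow (SE 0.52, adjusted p = 0.00391). Lineage-negative and whole marrow differed by -0.23 (SE 0.58, adjusted p = 0.745). The log2 ratio of Gp9 to Gp5 was 0.82 in AML, 0.35 in whole marrow and -1.98 in lineage-negative marrow. Lineage-negative marrow thus differed from whole marrow by -2.33 (exact permutation p = 0.0286, adjusted p = 0.0429), AML from lineage-negative marrow by 2.80 (exact permutation p = 0.00606, adjusted p = 0.0182), and AML from whole marrow by 0.47 (exact permutation p = 0.303).

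Gp1ba, in contrast, stayed uncalled against both normal groups. It had 44.0, 68.3, 63.7 and 73.7 normalized counts in whole marrow replicates 1 to 4, 118, 72.3, 113 and 111 in lineage-negative marrow, and 18 to 82.1 in AML with a median of 58.8. AML spanned the whole marrow range and reached into that of lineage-negative marrow. The log2 difference of AML was -0.28 from whole marrow (SE 0.35, adjusted p = 0.504) and -0.9985 from lineage-negative marrow (SE 0.35, adjusted p = 0.0264). The latter lay so near the minimum size of 1 that it was called in 10 of the alternative settings, among them the replicate block (-1.29, adjusted p = 0.0134).

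Gp1bb cannot be read apart from its neighbour. On chromosome 16 (18620317 to 18622403, minus strand, GRCm38), 1902 of its 2087 exonic bases, or 91.1%, also belong to exons of Septin5 on the same strand. Septin5, a cytoskeletal GTP-binding protein, averaged 1292 ± 464 (SD, n = 7) in AML and 1270 ± 337 (SD, n = 4) in whole marrow, but 28.4 ± 20.2 (SD, n = 4) among lineage-negative libraries. Gp1bb had 26.9, 45.5, 37.3 and 22.3 in whole marrow replicates 1 to 4 and 12.9, 39.96, 37.1 and 43.7 in lineage-negative marrow. AML values were near 0 in replicates 2, 3 and 6 and between 12.3 and 25.8 in the other 4. Gp1bb was called lower in AML against whole marrow at -2.57 (SE 0.87, adjusted p = 0.0154) and against lineage-negative marrow at -2.50 (SE 0.87, adjusted p = 0.0245). Its level may depend on how reads were divided between Gp1bb and Septin5, which was not tested. Pseudocounts of 0.1 and 5 gave -3.84 and -1.60 against whole marrow and -3.77 and -1.56 against lineage-negative marrow. The call against lineage-negative marrow was lost without lineage-negative replicate 2, 3 or 4 (adjusted p of 0.0613, 0.0599 and 0.0662), when only the 2 groups were fitted (0.0567) and with all genes of a non-zero value tested (0.0575). The log2 ratio of Gp1ba to Gp1bb was higher in AML than in whole marrow by 2.29 (exact permutation p = 0.0242, adjusted p = 0.0429), which no longer passed without AML replicate 2, 3, 6 or 7 (adjusted p of 0.0519 to 0.0571). With pseudocounts of 0.1 and 5 the difference was 3.55 and 1.35.

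Gp6 encodes the collagen receptor GPVI, which signals through the Fc receptor gamma chain. It was highest in whole marrow, with 43.1, 87.1, 51.1 and 47.8 normalized counts in replicates 1 to 4. Lineage-negative marrow had 0, 11.5, 8.81 and 4.57, and AML ran from 0 over a median of 2.16 to 14.7, with 4 of 7 libraries at or under the floor. Every whole marrow library lay above all others, and AML and lineage-negative marrow overlapped. Against whole marrow the log2 difference was -3.93 in AML (SE 0.79, adjusted p = 0.000322) and -3.46 in lineage-negative marrow (SE 0.89, adjusted p = 0.00224), the latter -2.67 without lineage-negative replicate 1. AML and lineage-negative marrow differed by -0.47 (SE 0.79, adjusted p = 0.653). After subtraction of the background scaled to exon length, whole marrow kept a mean of 42.4 and the differences were -3.72 and -3.05, both called.

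The order of the genes was compared per kilobase of exon, as the mean normalized count per kb in each group. In whole marrow Pf4 (307), Ppbp (302), Itgb3 (189), Gp9 (95.3) and Itga2b (84.7) led, with neighbours in the order overlapping, and a gap followed before Gp5 (30.002), Gp1ba (23.0), Vwf (21.7), Gp1bb (15.8) and Gp6 (9.71). In lineage-negative marrow Pf4 (574) and Itga2b (424) led without overlap with Gp5 (121), Itgb3 (104) and Gp9 (81.3). Ppbp (28.7 per kb) stood eighth there, beside Gp1ba (38.1) and Gp1bb (16.01), and Gp6 (1.05) was last. In AML Itgb3 (234 per kb) stood alone at the top, and from Pf4 (57.2) down to Gp6 (0.908) each gene overlapped the next.

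For 8 of the 10 genes, all but Ppbp and Itgb3, the SD in percent of the mean was larger over the 7 AML libraries than in either normal group, a difference that was not tested. For Gp9 the values were close, at 49.98% in AML and 49.1% in lineage-negative marrow. The 8 genes also had their lowest means in AML, and counting error is a larger part of a low mean. Replicate 5 held the highest value for 7 of the 10 genes, replicate 3 for 2 and replicate 4 for 1. Replicates 2 and 7 each held the lowest value for 4. Replicate 7 combined a Pf4 of 0 and an Itga2b of 39.9 with a Gp1ba of 79.8 and an Itgb3 of 1281, so the genes did not rise and fall as a block. The background of olfactory and vomeronasal genes was 1.15 in replicate 5 and 3.34 in replicate 6, the 2 highest among AML libraries. Without both replicates 8 of the 10 genes were again called lower than in whole marrow.

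**Figure D4:**
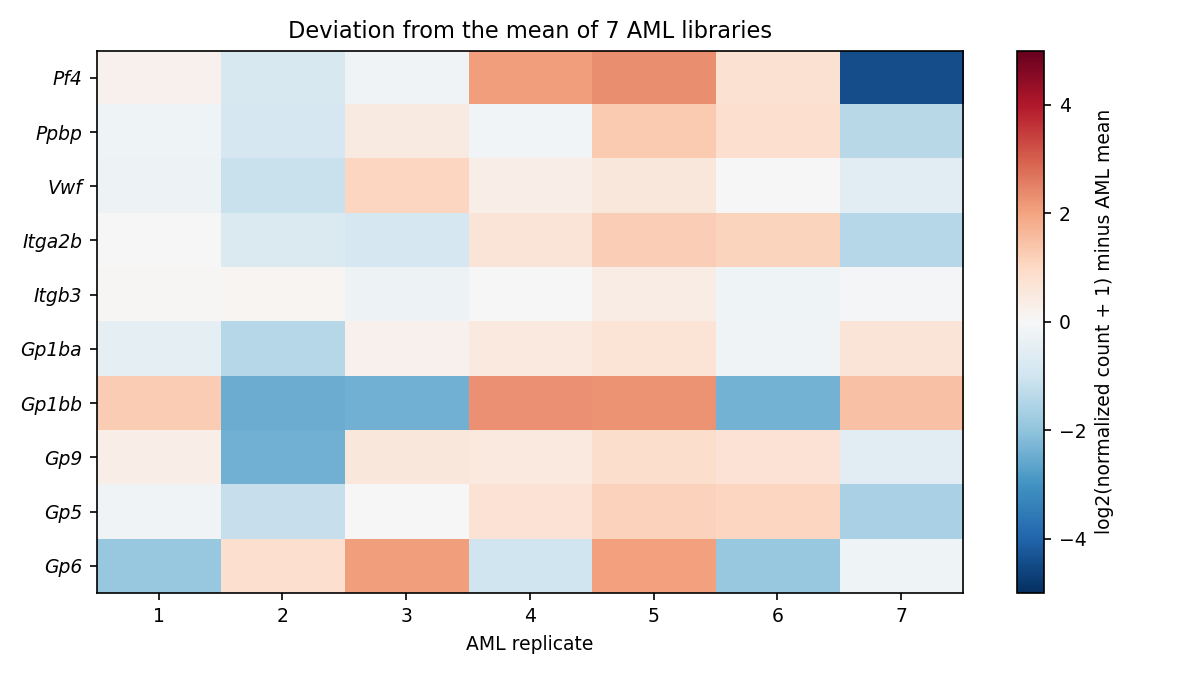
The map shows, for each gene and AML replicate, log2(normalized count + 1) minus the mean over the 7 AML libraries, in red above the mean and in blue below it. Itgb3 is nearly white throughout, replicate 5 is red in all 10 rows, and the darkest cell is Pf4 in replicate 7.

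Other megakaryocyte genes were followed in 4 lists of 88 measured and tested genes. Of the 88, 18 were higher and 23 lower in AML than in whole marrow, 22 higher and 28 lower in AML than in lineage-negative marrow, and 22 higher and 15 lower in lineage-negative than in whole marrow. Over all genes kept 27.3% were higher and 11.3% lower in the first comparison. In the second 17.7% and 12.5% were, and in the third 33.1% and 17.2%. TMM scaling turned the first count of the 88 into 1 higher and 33 lower, left the second at 22 and 28, and turned the third into 10 and 27. Over all 18941 genes kept, the same scaling gave 896 higher and 3037 lower in the first and 2078 and 4692 in the third. The lists' median log2 differences of 0.07, -0.31 and 0.41 lay nearer to the medians of all genes than those of the 10 glycoprotein genes did.

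Of 13 transcription factor genes 5 fell in AML against each normal group, namely Gata1, Tal1, Gfi1b, Gata2 and Zfpm1. Among all genes kept 11.3% fell against whole marrow and 12.5% against lineage-negative marrow. Gata1, the master regulator of erythroid and megakaryocyte genes, fell from 808 ± 268 (SD, n = 4) in whole and 1621 ± 112 (SD, n = 4) in lineage-negative marrow to 22.4 ± 12.6 (SD, n = 7), log2 differences of -5.27 and -6.35 (adjusted p = 1.17e-08 and 2.75e-10). Gfi1b, a repressor in both lineages, fell in both comparisons (-4.29 and -5.60), and Tal1 fell by 4.32 against whole marrow. Gata2 averaged 3121 ± 692 (SD, n = 4) in lineage-negative marrow against 270 ± 52.8 (SD, n = 4) in whole marrow, and AML averaged 102 ± 62.8 (SD, n = 7). Its difference of AML from lineage-negative marrow was -5.15, and that between the normal marrows 3.52. The ETS factor Fli1, which was named after its values were seen, had means of 3250 in AML, 2426 in whole marrow and 2148 in lineage-negative marrow, differences under the size required. Etv6, Runx1 and Lyl1 were called higher in AML than in whole marrow (1.44, 1.41 and 1.14), calls that TMM scaling removed. Etv6 and Runx1 were higher in lineage-negative than in whole marrow (2.05 and 1.68), and with TMM scaling Runx1 was no longer called.

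Of 22 receptor genes 6 fell and 1 rose in AML against whole marrow, and 8 fell and 4 rose against lineage-negative marrow. With TMM scaling 10 fell and 0 rose against whole marrow. Of all genes kept, 11.3% fell and 27.3% rose against whole marrow before that scaling, and 12.5% and 17.7% against lineage-negative marrow. Cd36, a scavenger and thrombospondin receptor that red cell precursors and macrophages also carry, was lower than in whole marrow by -3.17 (adjusted p = 0.000143) and higher than in lineage-negative marrow by 1.83 (adjusted p = 0.0144), a call lost with limma-voom and without lineage-negative replicate 2. Its AML mean of 373 was 135 without replicate 3. Ptger3, a prostaglandin E2 receptor, fell by 3.11 against lineage-negative marrow, and Pear1 and Itga6 by 1.52 and 1.30. The tetraspanin Cd9 was higher there by 1.70, and Cd226 by 1.10 in a call that several settings removed. Itgb1 was higher than in whole marrow by 1.24 and not called with TMM scaling. In lineage-negative marrow Ptger3, Pear1 and Itga6 were higher than in whole marrow (2.30, 2.26 and 1.53; Itga6 not with TMM scaling), and Cd36, Cd9 and Cd226 lower (-4.99, -1.78 and -1.17; the call of Cd226 was lost in 6 settings). Treml1 and P2ry12 have means too low for the naming rule and were singled out after their values were seen. Treml1, a receptor of platelet alpha granules, was lower in AML by -2.96 and -3.13. P2ry12, a platelet ADP receptor, had means of 100.1 in AML, 67.6 in whole marrow and 9.58 in lineage-negative marrow. It was higher in AML than in lineage-negative marrow by 3.27 (adjusted p = 1.57e-06), and its difference from whole marrow was 0.50 (adjusted p = 0.284).

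Of 22 granule and coagulation genes 3 rose and 5 fell in AML against whole marrow, and 6 rose and 5 fell against lineage-negative marrow. With TMM scaling 1 rose and 8 fell against whole marrow. Before that scaling 27.3% of all genes kept rose and 11.3% fell against whole marrow, and 17.7% and 12.5% against lineage-negative marrow. Mmrn1, a factor V binding protein of alpha granules, fell in both (-3.05, adjusted p = 3.40e-05, and -3.74, adjusted p = 2.75e-06). F13a1, the A subunit of clotting factor XIII, which monocytes also make, rose to 27280 ± 10010 (SD, n = 7) normalized counts from 7453 ± 2219 (SD, n = 4) in whole and 10472 ± 1787 (SD, n = 4) in lineage-negative marrow (1.82 and 1.29). Thbs1, thrombospondin, was lower than in whole marrow by -1.22, a call lost without whole marrow replicate 4, and higher than in lineage-negative marrow by 2.29. F5, coagulation factor V, was higher than in lineage-negative marrow by 3.29, and Slc18a2, a vesicular amine transporter, lower by -2.31. Tgfb1 and Vps33b were higher than in whole marrow by 1.52 and 1.21 but not with TMM scaling. In lineage-negative marrow Slc18a2, Tgfb1 and Vps33b were higher than in whole marrow (2.20, 1.74 and 1.60; Vps33b not with TMM scaling), and Thbs1 and F5 lower (-3.51 and -3.16).

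Of 31 signalling and cytoskeleton genes 11 rose and 7 fell in AML against whole marrow, and none of the 11 rises was called with TMM scaling, which gave 0 higher and 10 lower. Against lineage-negative marrow 12 rose and 10 fell. The shares over all genes kept were 27.3% higher and 11.3% lower against whole marrow, and 17.7% and 12.5% against lineage-negative marrow. Cavin2, a caveolar coat protein, fell in both comparisons (-2.33 and -3.17), and Arhgap6 and Ppif fell against lineage-negative marrow (-1.93 and -1.49). Fcer1g, the signalling chain of GPVI and of Fc receptors on many myeloid cells, rose to 5340 ± 750 (SD, n = 7) from 879 ± 133 (SD, n = 4) in lineage-negative marrow (2.603, adjusted p = 7.58e-10). Pik3r6 and Lyn rose there by 2.50 and 2.39. Pik3r6, Tbxas1 and Lyn were higher than in whole marrow by 1.61, 1.59 and 1.27, not with TMM scaling. In lineage-negative marrow Ppif, Arhgap6 and Lat were higher than in whole marrow (2.58, 2.00 and 1.37; Lat not with TMM scaling), and Fcer1g, Ptgs1 and Lyn lower (-1.42, -1.22 and -1.12; Lyn not without whole marrow replicate 2). Tubb1, the platelet beta-1 tubulin, was singled out after its values were seen and had means of 10.6 in AML, 161 in whole marrow and 29.2 in lineage-negative marrow (-3.91 and -1.50 for AML).

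**Figure D5:**
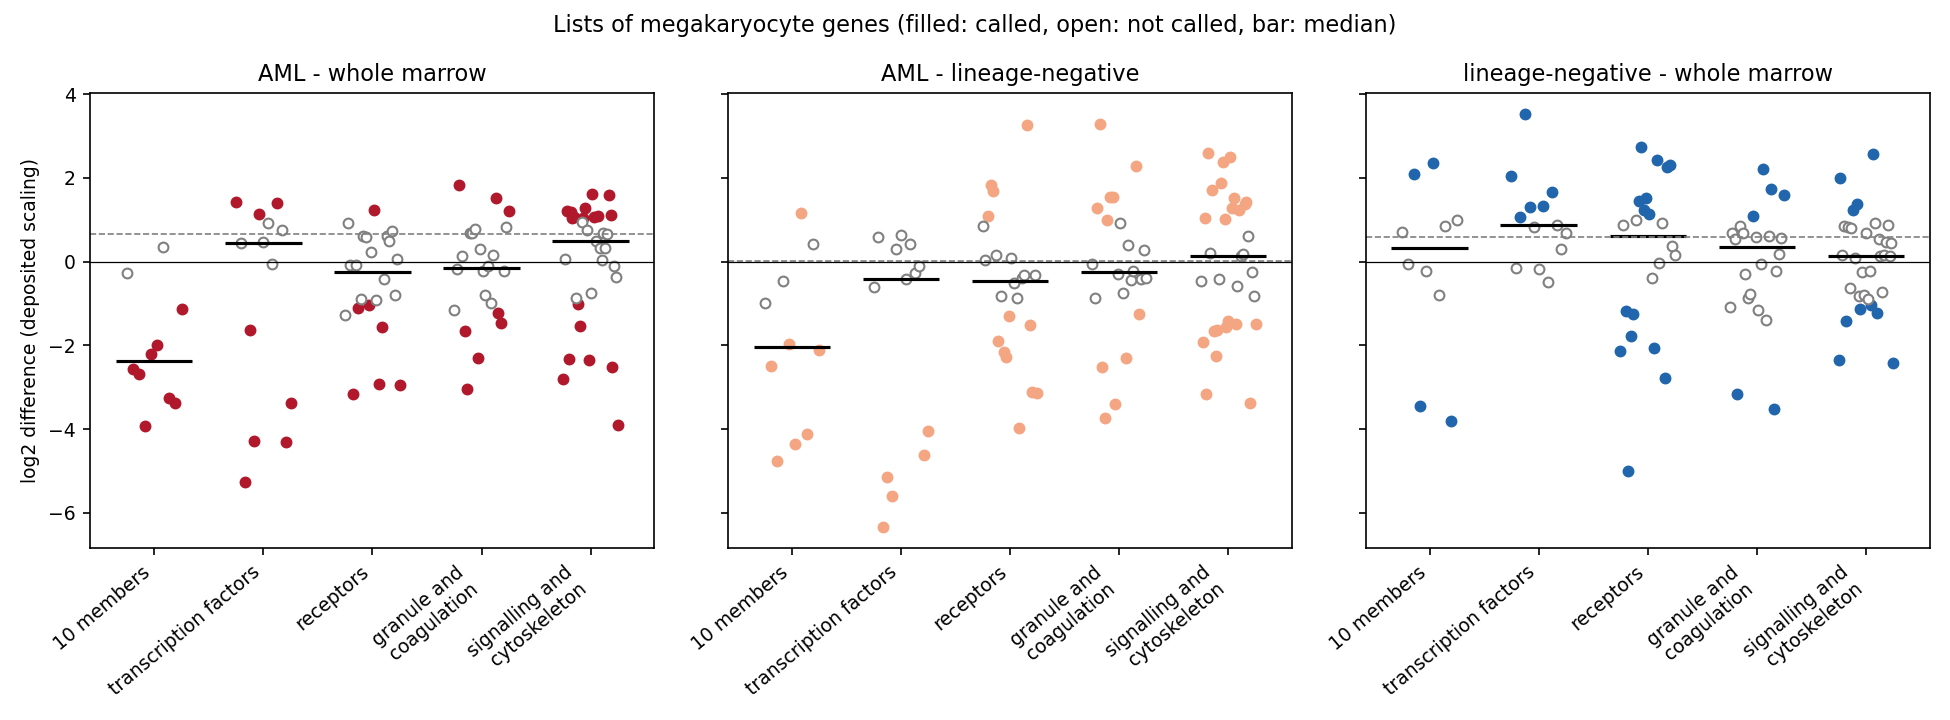
Each point is 1 gene, placed by its log2 difference in the comparison named above the panel and grouped by list; filled points were called, open points were not, the bar is the list's median and the dashed line the median of all genes kept. The medians of the 10 genes, -2.38 and -2.05 in the AML panels, lie below those of the 4 lists, whose genes spread to both sides of 0.

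Markers of other cell types were followed between the same groups. The summed level of 12 erythroid markers was 3202 to 25163 in AML, 596838 to 1453510 in whole marrow and 39442 to 61671 in lineage-negative marrow. The whole marrow sum was mostly globin, with means of 654854 for Hbb-bs and 328808 for Hba-a1. All 12 were lower in AML than in whole marrow, where 11.3% of all genes kept were lower. Against lineage-negative marrow 7 were lower and 5 not called, beside 12.5% of all genes kept lower. Of 10 mast cell and basophil markers 8 were tested, and 6 were lower in AML than in whole marrow and 7 lower than in lineage-negative marrow. The shares over all genes kept were 11.3% and 12.5% lower. The sums of the 10 markers were 3510 to 8326, 5140 to 12365 and 33204 to 52942 in AML, whole and lineage-negative marrow. Mcpt4 was at 0 in all AML and all lineage-negative libraries. The 10 stem and progenitor markers, of which Kit is also in the mast cell list, summed to 5144 to 6855 in AML, 1798 to 3466 in whole marrow and 11671 to 16519 in lineage-negative marrow. Of these 10, 3 were higher and 0 lower in AML than in whole marrow, 1 higher and 6 lower in AML than in lineage-negative marrow, and 7 higher and 1 lower in lineage-negative than in whole marrow. Over all genes kept 27.3% were higher and 11.3% lower in the first comparison. In the second 17.7% and 12.5% were, and in the third 33.1% and 17.2%. TMM scaling turned the first count of the 10 into 1 higher and 2 lower and the last into 5 and 1. Over all 18941 genes kept it gave 896 higher and 3037 lower in the first and 2078 and 4692 in the last. Their part in the differences of the glycoprotein genes was not tested.

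Among the 10 genes Gp9 ran closest to the mean profile of all of them over the 15 libraries, with a root mean square log2 difference of 0.52 after centring, and Gp6 farthest at 1.71. Among other named genes whose mean reached 100, the 6 nearest to that mean profile were Slc16a1 (0.45), Siglecf (0.49), Abcg2 (0.49), Tom1l1 (0.52), Scrn3 (0.53) and Xk (0.54). Predicted genes without a symbol and genes with a clone name ending in Rik were passed over. Slc16a1, a monocarboxylate transporter, had means of 787 in AML, 3553 in whole marrow and 3831 in lineage-negative marrow. Abcg2, an efflux transporter, had 197, 1015 and 761.7 in the same order. Xk, a membrane protein of the Kell blood group complex, had 247, 741.6 and 802.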

How the data were processed

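Total RNA of 15 mouse bone marrow samples was sequenced from TruSeq Stranded Total RNA libraries after TRIzol extraction, per the labels' protocols. Groups and replicate numbers came from the sample titles. The unit of the deposited table is signal, called normalized counts here: gene read counts, estimated and then scaled by the authors with a DESeq2 size factor for each library, of the poscounts type according to the table's name. The submitters' processing notes name STAR, Partek, DESeq2 and the build mm10, without versions. The strand used in counting and the rule that divided reads among overlapping genes are not given in the sources used here. Of the gene identifiers 38066 occur in the GENCODE GRCm38 annotation, but only 861 have the start given in the table, so positions and exonic lengths are those of the annotation.

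Low values were whole multiples of a step, the value of 1 read, for 80.8% to 86.4% of values per library (tolerance 0.02 of a step), so whole reads were not recovered and depth was estimated from the step. Genes with a normalized count of at least 10 in at least 4 samples (18941) entered a limma fit of 3 group means on log2 values with a pseudocount of 1 (limma 3.58.1, R 4.3.3, mean-variance trend, two-sided, Benjamini-Hochberg adjustment). On simulated data for AML against whole marrow with 18941 genes, 177 of 200 genes changed by a log2 of 2 were called, with 13 false calls. The changed genes had means of at least 50, and the simulation held no background and no difference in scaling between groups. It therefore says nothing about genes as low as Gp6 (mean of 19.4 over all libraries) or Gp1bb (22.9), or about the choice of scaling. Log2 ratios of 5 gene pairs were compared by exact two-sided permutation tests (scipy 1.17.1, Python 3.11.15), 15 in all. The labels name no pairs, and deviations of same-numbered samples correlated only weakly (see the closing part). No pairing was therefore used in the main fit, although a pairing is not excluded. No other per-sample columns were set aside (0).

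The 10 genes, the 4 megakaryocyte lists, the 5 marker lists, the tests and the alternatives were chosen with earlier results of these data known. From each megakaryocyte list a comparison names up to 3 called genes with the largest rise and up to 3 with the largest fall, from those whose mean reaches 100; genes named outside this rule are marked in the text. Promoter sequences came from RefSeq, without the 50 bases after the start site. The alternatives were pseudocounts of 0.1 and 5, 2 other filters on low values, TMM scaling (written in R), limma-voom, fits of 2 groups alone, the replicate block, subtraction of the olfactory background, and leaving out libraries; subtraction of the background scaled to exon length was added after the data had been seen.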

Additional observations from a re-analysis of the deposited data

Results flagged for a closer look

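In 45 groups of values (each gene and each gene ratio in each group) the gap between an extreme library and its nearest neighbour was divided by the range of the group. In 7 cases this share was above Dixon's critical value, and chance alone flags about 1 in 20 groups. For single genes on the log2 scale they were Gp1ba in lineage-negative replicate 2, the lowest at 72.3 normalized counts (share 0.8741), Gp1bb in lineage-negative replicate 1, the lowest at 12.9 (share 0.8637), Gp9 in whole marrow replicate 1, the lowest at 37.7 (share 0.8727), and Gp9 in AML replicate 2, the lowest at 2.25 (share 0.5696).

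For ratios within a library, the log2 ratio of Gp1ba to Gp1bb was highest among whole marrows in replicate 4 at 1.68 (share 0.839), that of Gp9 to Gp5 in whole marrow replicate 3 at 0.95 (share 0.8619), and that of Pf4 to Ppbp in whole marrow replicate 1 at -0.12 (share 0.8534). The lineage-negative library with the low Gp1bb is also the one with the lowest Ppbp and the Gp6 listed at 0.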

How the results depend on the processing

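The 8 lower calls against whole marrow stood at 6 to 8 under the alternatives run, the 6 against lineage-negative marrow at 5 to 7, and the higher calls in those comparisons at 0 and 1 throughout. The 2 lower calls between the normal marrows became 1 under a minimum mean of 50, since Gp6 was then not tested. Gp1bb, which was not called between the normal marrows, was not tested either. Itgb3 between AML and whole marrow reversed to -0.34 with TMM scaling and -0.34 with limma-voom. Ppbp between AML and lineage-negative marrow reversed to -0.0073 without AML replicates 5 and 6 and ranged from -0.40 to 0.95 when single libraries were left out. Gp1bb between the normal marrows reversed to 0.38 with the background subtracted and 0.19 with it scaled to exon length, and ranged from -0.23 to 0.33 with libraries left out. The ratio of Pf4 to Ppbp between AML and whole marrow reversed to -0.34 with a pseudocount of 0.1 and -0.0713 without AML replicates 5 and 6, and ranged from -0.25 to 0.63 with libraries left out. None of these reversed differences was called, and the cause was not tested.

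With the replicate block, 8, 7 and 2 genes were called lower in the 3 comparisons as given in the report; the added call was Gp1ba at -1.29 (adjusted p = 0.0134), and no other call of the 10 genes changed. Same-numbered samples correlated at -0.29 to 0.17. No correlations of samples with unlike numbers are set beside these, so they cannot exclude that the numbers pair the samples. With single libraries left out, the log2 ratio of Pf4 to Ppbp ranged from -5.03 to -4.04 between AML and lineage-negative marrow and from 4.20 to 5.15 between the normal marrows, and that of Itga2b to Itgb3 from -2.57 to -2.13 and from -5.73 to -5.29 for AML against whole and lineage-negative marrow and from 3.02 to 3.32 between the normal marrows. Gp9 to Gp5 ranged from 2.61 to 3.08 between AML and lineage-negative marrow and from -2.61 to -2.12 between the normal marrows, Vwf to Itga2b from 0.55 to 1.05, 1.92 to 2.42 and -1.55 to -1.18 for AML against whole, AML against lineage-negative and lineage-negative against whole marrow, and Gp1ba to Gp1bb from 1.85 to 2.59 for AML against whole marrow. Without AML replicates 5 and 6 the last was 2.16 and did not pass, while Vwf to Itga2b was 1.22 and did. Ratio tests with a library left out between groups of 4 had too few splits to pass the threshold, and those of AML against 3 normal libraries reached an adjusted p of 0.0417 to 0.05 at best, so calls lost there say nothing about stability. For Gp1bb and Gp6, 3 and 4 of 7 AML libraries were at or under 3 reads, too few to resolve their levels.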
